A study of Mus musculus with 4 samples.

Results

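ERK feedback inhibitors and Ets target genes were examined in a chromatin immunoprecipitation sequencing (ChIP-seq) study of Pcbp1, a poly-C-binding protein that binds RNA and DNA. The members are the Pcbp1 peaks whose summit lay within 50 kb of the gene body of Spry2, Spry4, Spred1, Spred2, Dusp6, Etv4, Etv5 or Egr1 on the mouse build GRCm38 (mm10). The rule found 29 peaks, of 15626 in both deposited lists together: 6 of the 3494 EpiLC peaks and 23 of the 12132 Naive peaks.

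Both conditions were E14 Tg2a mouse embryonic stem cells with no allele or transgene named in the labels. EpiLC are primed epiblast-like cells, made from the naive cells by 48 hours on fibronectin in N2B27 with 12 ng/ml bFGF, 20 ng/ml Activin A and 1% KOSR. Naive cells had been kept for 3 passages without serum, with LIF, 1 uM of the MEK inhibitor PD0325901 and 3 uM of the GSK3β inhibitor CHIR99021. Each condition had 1 Pcbp1 library and 1 input library, from chromatin sheared to around 500 bp. No value below therefore has a replicate error, and no test between EpiLC and Naive was possible.

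Fibroblast growth factors signal through Ras, Raf, MEK and the kinase ERK, which phosphorylates Ets-family factors and switches on a set of fast-responding genes. Several of those genes encode inhibitors that act back on the pathway. In mouse embryonic stem cells this pathway drives exit from naive pluripotency. Naive culture blocks it with a MEK inhibitor, and EpiLC culture stimulates it with bFGF. RNA was not measured here, so the peaks say nothing about the activity of these genes.

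The promoters that bear most directly on the peaks are those of Spred2, which held a peak in both lists, of Etv5, whose 2 annotated starts lie on either side of an EpiLC peak, and of Spred1, with a Naive peak just upstream. They are shown 5′ to 3′ on the gene's own strand, from 250 bases before to 50 after the annotated start, as given by RefSeq for GRCm38.p6. Capitals mark runs of 5 or more C or G, since Pcbp1 binds C-rich nucleic acid and a run of G is a run of C on the other strand.
Spred2, chr11:19924192-19924491, plus strand: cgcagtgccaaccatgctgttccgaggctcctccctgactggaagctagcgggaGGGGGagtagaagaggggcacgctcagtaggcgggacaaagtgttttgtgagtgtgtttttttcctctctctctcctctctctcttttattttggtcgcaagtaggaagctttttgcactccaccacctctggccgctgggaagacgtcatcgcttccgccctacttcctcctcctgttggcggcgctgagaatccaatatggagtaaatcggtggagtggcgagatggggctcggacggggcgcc
Etv5 upstream start, chr16:22439521-22439820, minus strand: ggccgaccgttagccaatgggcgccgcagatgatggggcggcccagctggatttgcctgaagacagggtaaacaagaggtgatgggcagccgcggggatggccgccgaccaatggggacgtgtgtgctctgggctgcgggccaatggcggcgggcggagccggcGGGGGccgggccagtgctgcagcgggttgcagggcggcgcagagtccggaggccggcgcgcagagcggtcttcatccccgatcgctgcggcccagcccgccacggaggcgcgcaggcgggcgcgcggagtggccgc
Etv5 downstream start, chr16:22438319-22438618, minus strand: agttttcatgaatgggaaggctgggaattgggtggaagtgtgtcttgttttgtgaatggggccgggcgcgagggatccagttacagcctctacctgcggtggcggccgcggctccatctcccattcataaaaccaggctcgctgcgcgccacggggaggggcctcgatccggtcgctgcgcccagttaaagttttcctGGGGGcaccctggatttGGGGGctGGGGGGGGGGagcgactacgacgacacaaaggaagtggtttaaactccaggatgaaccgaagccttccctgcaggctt
Spred1, chr2:117120821-117121120, plus strand: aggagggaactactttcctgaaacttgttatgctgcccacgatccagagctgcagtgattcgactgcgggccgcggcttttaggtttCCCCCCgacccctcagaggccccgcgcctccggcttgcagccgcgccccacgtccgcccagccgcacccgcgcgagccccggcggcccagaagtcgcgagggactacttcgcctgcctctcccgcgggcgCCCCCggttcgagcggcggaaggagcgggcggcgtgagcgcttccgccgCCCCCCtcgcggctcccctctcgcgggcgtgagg

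The Spred2 window was covered for 176 bp by its EpiLC peak and for 154 bp by its Naive peak, with the EpiLC summit on base 37 and the Naive summit on base 1 of the printed sequence. It held a single run of 5 G. The downstream Etv5 window began 12 bp from the edge of the EpiLC peak and held 3 runs of G, the longest of 10. The upstream Etv5 window lay 349 bp beyond the other edge of that peak and held 1 run of 5 G. The Spred1 window lay 126 bp from the edge of its Naive peak and held 3 runs of C, the longest of 6.

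RefSeq promoter windows were matched for 5 of the 8 genes, Spry2, Spred1, Spred2, Dusp6 and Etv5, which gave 6 windows. CCCCC, searched on both strands, was found in all 6 windows, against 51.0% of all 32851 promoter windows of the same length. The windows also had a GC content of 57.0% to 74.0%, where the median of all windows was 52.7%. The part of base composition in the motif count was not tested. CCGGAA, a form of the Ets site, was found only in the Spry2 window of the 6, beginning at base 284, against 14.9% of all windows. It was searched on both strands. Other forms of the Ets site were not searched, so its absence does not show that a window lacks Ets sites. The CArG box, the site of serum response factor, was in 0 of the 6 windows and in 1.63% of all windows. CCCCC and CCGGAA matches may overlap. These matches describe letters and are not evidence of binding.

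The lists are read here with the level of background at which each was called. A deposited fold is the enrichment at the summit over the caller's background, and the read pileup behind it was recovered from the fold and the p-value. The lowest background, taken as the genome-wide one, was 7.43 reads in EpiLC and 4.004 in Naive. At that background a call needed a pileup of 22 in EpiLC, a fold of 2.73, and of 14 in Naive, a fold of 2.997. Brackets below give 95% Poisson intervals on the pileup, which cover counting error only. Where a list has no peak, weaker binding by Pcbp1 may still have been below the call.

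The 6 EpiLC peaks lay at 5 of the 8 genes, and the 23 Naive peaks at all 8. In the genome at large 26.3% of 21887 protein-coding genes had an EpiLC peak within 50 kb and 58.1% had a Naive peak. Of the 6 EpiLC peaks, 3 overlapped a Naive peak by at least 1 bp, at Spry4, Spred2 and Dusp6. The other 3 were in the EpiLC list alone, at Spry4, Etv4 and Etv5. The remaining 20 Naive peaks were in the Naive list alone and lay at every gene except Spry4. Shared peaks were 3 of the 6 EpiLC peaks near these genes, beside 48.3% of the whole EpiLC list, and 13.0% of the Naive peaks, beside 13.7% of the whole Naive list, so that sharing was close to its background in both. Genes with a shared peak were 3 of 8 against 16.7% of all genes, with an EpiLC-only peak 3 of 8 against 13.0%, and with a Naive-only peak 7 of 8 against 54.0%.

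**Figure D1:**
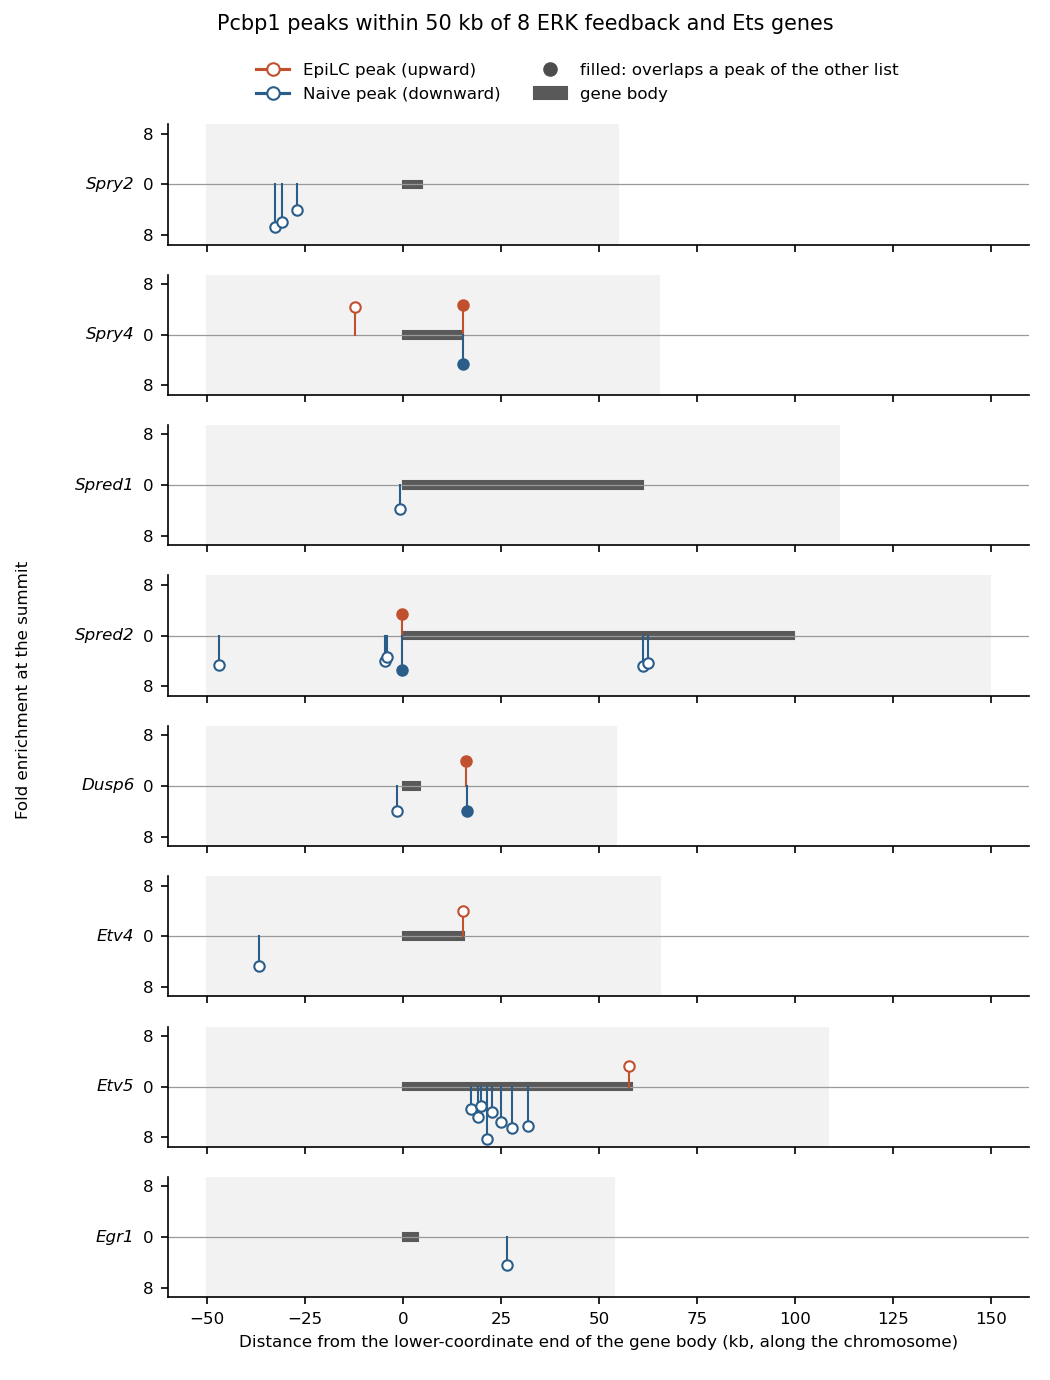
Position of each Pcbp1 peak along the chromosome, in kb from the lower-coordinate end of each gene body (dark bar), with the 50 kb window shaded and the fold enrichment on the vertical axis, EpiLC upward and Naive downward. Filled points overlap a peak of the other list. The 8 Naive peaks of Etv5 stand together inside the gene, and its single EpiLC peak is at the far end.

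Position was described by the annotated ends of the genes. A peak was placed at a gene end when its summit was within 1 kb of either annotated end. Of the 6 EpiLC peaks 4 were at gene ends, those of Spry4, Spred2, Etv4 and Etv5, while of the 23 Naive peaks 3 were, those of Spry4, Spred1 and Spred2, and 20 lay farther away. Of all peaks, 31.0% in EpiLC and 31.7% in Naive were that close to an end of any protein-coding gene. The peaks near the 8 genes were counted only at the ends of those genes, so these shares are not like for like. Gene-end peaks marked 5.61% of all protein-coding genes in EpiLC and 19.3% in Naive. Etv4 and Etv5, 2 of the 8, were marked at an end by EpiLC and not by Naive, against 1.52% of all genes. Spry4 and Spred2 had one in both lists, against 4.09% of all genes. Spred1 had one in Naive and not in EpiLC, against 15.2%. The gene-end peaks of Etv4 and Spry4 were known before these genes were chosen, so the counts are a description and no test was made of them. They also depend on list length. Among the 3494 Naive peaks with the lowest deposited p-values, 0 lay at an end of these genes and 0 overlapped the EpiLC peaks. A cut by fold was not made. By fold, the Naive peak at the Spred2 promoter stood above 75.6% of its list. The gene-end peak nearest to the 1 kb limit was that of Spred1, at 745 bp, and the nearest outside it was the Naive peak 1572 bp from Dusp6. For the 50 kb limit, the farthest peak inside was a Naive one at 47.0 kb from Spred2 and the nearest outside a Naive one at 66.6 kb from Egr1.

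The Sprouty genes Spry2 and Spry4 encode inhibitors that dampen receptor tyrosine kinase signalling towards ERK. At Spry4 (chr18:38586247-38601347) an EpiLC peak just past the higher-coordinate end had a fold of 4.76 (3.70 to 6.02, pileup 67), and the Naive peak it overlapped had 4.55 (2.92 to 6.78, pileup 22). The 2 summits were 24 bp apart and the intervals overlapped. The EpiLC peak was 607 bp wide, wider than any other of the 6. Its summit was 182 bp from Spry4 and 88 bp from Arhgap26, a neighbouring gene, so the peak belongs to both gene ends by position. A further EpiLC peak, 12.3 kb from the other end of Spry4, had 4.33 (3.15 to 5.81, pileup 42) and no Naive counterpart. Spry4 was the only gene of the 8 with more EpiLC peaks (2) than Naive peaks (1). Over all protein-coding genes 7.46% had at least 2 EpiLC peaks within 50 kb.

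Spry2 (chr14:105891947-105896819) had no EpiLC peak within 50 kb and 3 Naive-only peaks, all downstream of the gene at 27.1, 30.8 and 32.7 kb from its body. Their folds were 3.98 (2.78 to 5.55), 5.94 (4.12 to 8.31) and 6.79 (4.74 to 9.46), in the same order. The pileups were 33, 32 and 33, so that the lower fold of the nearest peak went with a local background 1.88 times the genome-wide one. Spry2 was the nearest protein-coding gene to all 3 peaks. As many Naive-only peaks or more were found around 15.6% of all genes.

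The Spred genes encode Sprouty-related membrane proteins that hold back the activation of Raf by Ras. At Spred2 (chr11:19924442-20024026) the promoter peak had an EpiLC fold of 3.37 (2.47 to 4.50, pileup 44) and a Naive fold of 5.48 (3.68 to 7.88, pileup 27). The summits lay 214 bp upstream of the annotated start in EpiLC and 250 bp upstream in Naive, 36 bp apart. The point values differ, and the counting intervals overlap. Spred2 also had 5 Naive-only peaks, a number reached by 4.24% of genes. Their folds ran from 3.44 to 4.80. A pair lay 4.11 and 4.76 kb upstream of the start, a second pair inside the gene, and a single peak 47.0 kb upstream. The wider of the intragenic pair spanned 1251 bp, more than any other of the 29.

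Spred1 (chr2:117121071-117182279) had no EpiLC peak within 50 kb. Its single Naive peak, 745 bp upstream of the start, had a fold of 3.70 (2.45 to 5.40, pileup 25) and was 670 bp wide. The local background there was 1.50 times the genome-wide one. The Naive fold at Spred1 was lower than that at the Spred2 promoter, with overlapping intervals.

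Dusp6 encodes a phosphatase that removes the activating phosphates from ERK in the cytoplasm. At Dusp6 (chr10:99263231-99267489) the shared peak was not at the gene but 11.8 kb past its 3′ end, with a fold of 3.95 (2.94 to 5.22, pileup 48) in EpiLC and 3.99 (2.54 to 6.00, pileup 21) in Naive. The summits were 67 bp apart, and the folds differed by less than the counting error. A Naive-only peak 1572 bp upstream of the start had 3.95 (2.49 to 6.00, pileup 20). No EpiLC peak was called there.

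**Figure D2:**
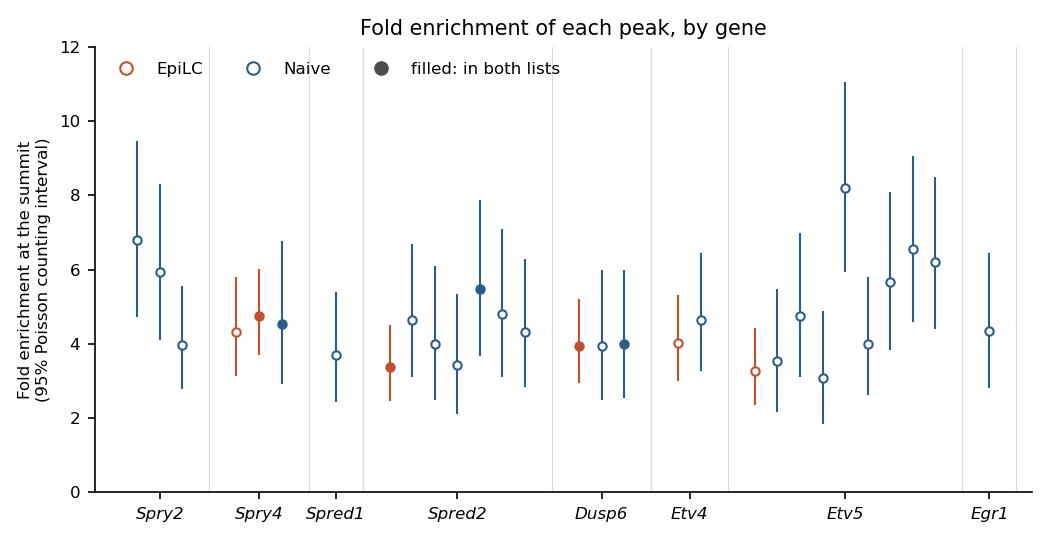
Fold enrichment at the summit (vertical axis) of all 29 peaks, grouped by gene and ordered along the chromosome within each list, EpiLC left of Naive, with 95% Poisson counting intervals as bars. EpiLC folds run from 3.27 to 4.76 and Naive folds from 3.08 to 8.20, the highest being a peak inside Etv5.

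Etv4 and Etv5 encode Ets transcription factors of the PEA3 group, which are induced by fibroblast growth factor signalling. Both had an EpiLC-only peak at 1 end of the gene and no Naive peak there. The Etv4 peak (chr11:101784965-101785231), 245 bp inside the higher-coordinate end of the gene, had an EpiLC fold of 4.03 (3.01 to 5.31, pileup 49). The Etv5 peak (chr16:22438630-22439172) had an EpiLC fold of 3.27 (2.35 to 4.44, pileup 39) and was 543 bp wide. Its summit, 613 bp inside the gene, fell between the 2 annotated starts whose sequences are given above. Whether a Naive peak of such a fold would have been called there depends on the local Naive background, which the lists do not give.

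Away from that end the 2 genes differed. Etv5 (chr16:22381313-22439570) held 8 Naive-only peaks in its body, with summits spread over 14.4 kb. Their folds, in order of rising coordinate, were 3.53, 4.76, 3.08, 8.20, 3.99, 5.66, 6.55 and 6.20. The strongest (chr16:22402537-22403273) had a pileup of 41 and an interval of 5.94 to 11.05, and its fold stood above 94.8% of the Naive list. The gaps between neighbouring summits ran from 717 to 3910 bp. No EpiLC summit fell in this run, and the EpiLC peak at the gene end was 25.9 kb from its nearest summit. Etv4 (chr11:101769747-101785310) had 1 Naive peak, at a fold of 4.65 (3.26 to 6.44), 36.7 kb from its body and inside Dhx8, an RNA helicase gene.

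The run in Etv5 was dense beside the rest of the Naive list. As many Naive-only peaks within 50 kb were found around 96 of 21887 genes (0.439%), and as many inside the gene body in 10 genes, Etv5 included. Of those 10, Etv5 had the most for its length, at 1.37 per 10 kb, ahead of Arid5b at 0.589 and Esrrb at 0.498. Stretches with at least 8 Naive summits within 14.4 kb numbered 5 in the genome and held 67 Naive peaks (0.552% of the list). The others lay at Nlrp12 and at 3 places on chromosomes 9, X and Y that overlapped no protein-coding gene. The run was picked out after its values were seen.

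**Figure D3:**
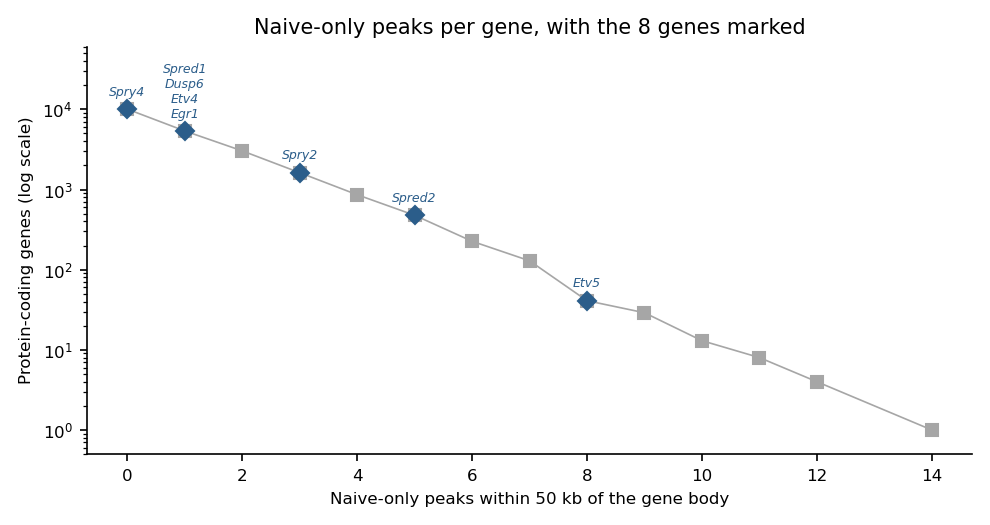
Number of protein-coding genes (vertical axis, log scale) by the number of Naive-only peaks within 50 kb of the gene body (horizontal axis), with diamonds at the values of the 8 genes. Etv5 stands at 8 peaks, Spred2 at 5 and Spry2 at 3, while Spry4 has 0.

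Egr1 (chr18:34861207-34864956), an immediate-early zinc finger factor gene switched on by ERK through serum response factor and Ets proteins, had no EpiLC peak within 50 kb. A single Naive-only peak 22.7 kb away had 4.35 (2.83 to 6.44, pileup 23) and was 223 bp wide, narrower than any other of the 29. It was closer to Etf1, a translation termination factor gene 15115 bp off, than to Egr1.

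As a group, the 6 EpiLC peaks had a median fold of 3.99, beside 3.41 for the whole EpiLC list, and 4 of the 6 were above the list's median. The 23 Naive peaks had a median of 4.55, beside 4.43 for the whole Naive list, and 12 of 23 were above its median. The EpiLC pileups were between 39 and 67 and the Naive pileups between 16 and 41. Local background was 1.20 to 1.79 times the genome-wide value at the EpiLC peaks and up to 1.88 times at the Naive peaks, 3 of which were at the genome-wide value. Per 100 kb of window the 8 genes held 0.565 EpiLC peaks, against 0.266 around all protein-coding genes, and 2.16 Naive peaks, against 0.929. Without Etv5 these densities were 0.553 in EpiLC and 1.66 in Naive. In both lists 5 of the 8 genes were above the density around all genes, as were 25.5% of all protein-coding genes in EpiLC and 37.8% in Naive. The median gene of the 8 had 1 EpiLC peak within 50 kb, against 0 over all genes, and 1.5 Naive peaks, against 1.

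Among the 3 shared pairs, the ratio of the EpiLC fold to the Naive fold was 1.05 at Spry4, 0.992 at Dusp6 and 0.616 at Spred2. Over all 1689 EpiLC peaks that overlapped a Naive peak the median ratio was 0.670 (quartiles 0.523 and 0.867), and 14.4% of pairs had the higher fold in EpiLC. These ratios depend on the background used. With each pileup set over the lowest background of its list, a setting added after seeing the data, the ratio of EpiLC to Naive was 1.75 at Spry4, 1.32 at Dusp6 and 0.954 at Spred2, with a median of 0.989 over all pairs. Dusp6 then passed to the EpiLC side of equality and Spred2 came close to it. On both scales Spry4 and Dusp6 were above the median of all pairs and Spred2 was just below it. With 1 library per condition these ratios have no replicate check.

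**Figure D4:**
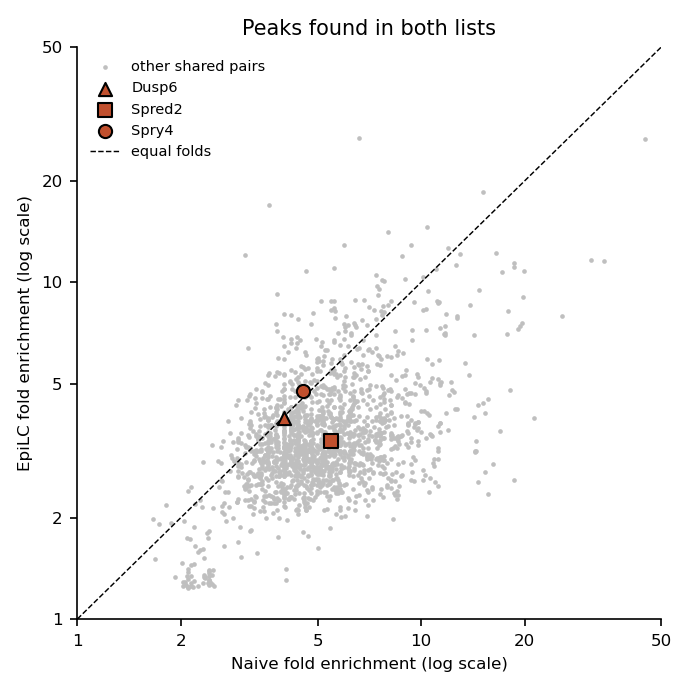
EpiLC fold (vertical axis) against Naive fold (horizontal axis), both on log scales, for the 1689 EpiLC peaks that overlapped a Naive peak, with the pairs of Spry4, Dusp6 and Spred2 marked and a dashed line at equal folds. On the deposited folds Spry4 (1.05) and Dusp6 (0.992) lie close to the line and Spred2 (0.616) below it; over each list's lowest background the ratios are 1.75, 1.32 and 0.954.

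Other genes of the pathway were set beside these 8. Of 25 genes that carry the signal from receptor to ERK and beyond, 10 had an EpiLC peak within 50 kb and 22 a Naive peak, with medians of 0 and 2 peaks per gene. Of all protein-coding genes, 26.3% had an EpiLC peak and 58.1% a Naive peak that close. The 25 genes were longer, with a median of 64553 bp. That median was 17169 bp for all protein-coding genes and 15332.5 bp for the 8. Gene-end peaks were found at 2 of the 25 genes in EpiLC and 9 in Naive, against 5.61% and 19.3% of all genes. The 2 in EpiLC were also in Naive. Grb2, the adaptor that links receptors to the Ras activator Sos, had 9.52 (7.99 to 11.3) in EpiLC and 14.8 (11.6 to 18.5) in Naive. Map2k2, which encodes MEK2, had 3.48 (2.61 to 4.54) in EpiLC and 3.82 (2.46 to 5.70) in Naive. Among those in Naive alone were the adaptor gene Shc1 (5.39), Sos1 (5.31), Nras (5.05), the MEK1 gene Map2k1 (4.40) and Rps6ka1 (3.42), which encodes a kinase activated by ERK. No gene of this list had a gene-end peak in EpiLC alone, against 1.52% of all genes. That share is so low that 0 of 25 is no contrast with the background.

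Of 25 further feedback and ERK-responsive genes, 10 had an EpiLC peak within 50 kb and 16 a Naive peak, with medians of 0 and 1 per gene. Of all protein-coding genes, 26.3% had an EpiLC peak and 58.1% a Naive peak that close. Genes with a gene-end peak numbered 4 in EpiLC and 6 in Naive, against 5.61% and 19.3% of all genes. Both Naive counts were close to the share of all genes, and both EpiLC counts lay above it. These differences were not tested. Erf, an Ets-domain repressor regulated by ERK, had 4.40 (3.19 to 5.93) in EpiLC and 4.996 (3.27 to 7.34) in Naive. The immediate-early gene Fos had 3.91 (3.04 to 4.96) in EpiLC and 6.48 (4.63 to 8.83) in Naive, and Ier2 had 2.70 in EpiLC and 3.25 in Naive. Egr3, a relative of Egr1, had 3.29 in EpiLC alone. Dusp4 (3.80), Etv1 (3.79) and Junb (3.49) had gene-end peaks in Naive alone. The close relatives Spry1 and Spred3 had no peak within 50 kb in either list. Spry3 had none either, but reads may not be mappable at its given position (chrX:101352-110912), so its lack of peaks is not informative. Etv1, the remaining PEA3-group gene, had 4 Naive-only peaks and no EpiLC peak.

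**Figure D5:**
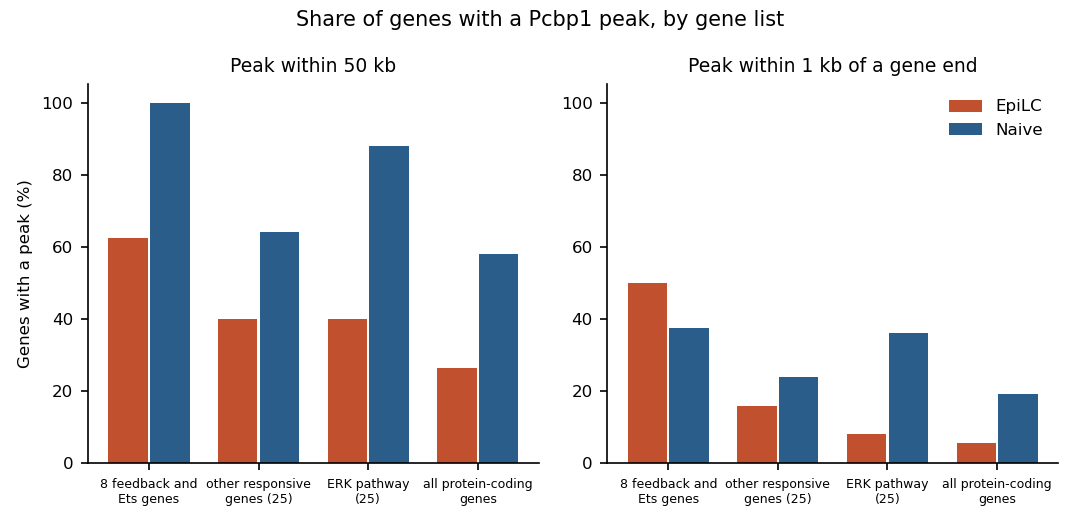
Percentage of genes with a Pcbp1 peak within 50 kb of the gene body (left) and within 1 kb of a gene end (right), for the 8 genes, the 25 other responsive genes, the 25 pathway genes and all 21887 protein-coding genes, EpiLC bars left of Naive bars. Gene-end peaks in EpiLC mark 4 of the 8 genes, 4 of the 25 responsive genes and 2 of the 25 pathway genes. Those in Naive mark 3, 6 and 9 genes, in the same order. All protein-coding genes stand at 5.61% in EpiLC and 19.3% in Naive.

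By numbers of shared, EpiLC-only and Naive-only peaks within 50 kb over the 2 libraries, each gene was matched to the genes with the same 3 numbers, and the one nearest in length is named. Etv5 had 5 matches, with C87436 the nearest. Spred2 had 84, with Sufu, and Spry4 had 89, with Catsper4. Etv4 had 515, with Mars1, Dusp6 had 609, with Gnrh1, and Spry2 had 971, with Ly6e. Spred1 and Egr1 had 1 Naive-only peak each, a pattern of 3858 other genes, with Camkk2 nearest to Spred1 and Cstf2t nearest to Egr1.

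Markers of the cell states were also looked up, as peaks rather than RNA. Of 6 naive markers, 1 was marked at an end by EpiLC and 5 by Naive. Of 5 primed markers, 4 had one in EpiLC and 0 in Naive. Of 5 fibroblast and other-lineage markers, 2 (Thy1 and Gata6) had one in EpiLC and 0 in Naive. Over all protein-coding genes the shares were 5.61% in EpiLC and 19.3% in Naive. Within 50 kb the states were less separate. A Naive peak lay near 6 naive, 4 primed and 2 other-lineage markers, against 58.1% of all genes. An EpiLC peak lay near 1, 5 and 3 of them, against 26.3%. The part of cell identity in the peaks near the 8 genes was not tested.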

How the data were processed

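Pcbp1 was measured by ChIP-seq in 1 EpiLC and 1 Naive library. The authors deposited 1 peak list per condition, with no pooling of replicates. Bowtie2, MACS2, Picard, fastp and the build GRCm38 (mm10) appear in the submitters' processing notes, without versions or roles, and the sources used here name no control for the peak caller. The fold deposited for each peak is a ratio of reads to background where the peak is highest. The deposited −log10 p-values and −log10 q-values are the authors' values for each peak, with a lowest −log10 q of 2.02 in both lists. The other deposited column used gives the summit, counted in bases from the start.

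Each fold was taken to be (pileup + 1) / (background + 1), and each p-value a Poisson tail. The deposited −log10 p was matched to within 0.001 by exactly 1 whole-number pileup for 100% of peaks in both lists. The lowest background of a list was taken as genome-wide. The recovery and the overlap rule were tested on simulated data. Overlaps of at least 1 bp were the same with bedtools 2.31.1 and with Python 3.11.15, scipy 1.17.1, pandas 2.3.3 and numpy 2.4.6, and figures used matplotlib 3.10.9. Genes came from RefSeq GRCm38.p6, and strand from its promoter windows where one was matched. Spry4, Etv4 and Egr1 had none, so either end counted as a gene end for all genes.

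The members and gene lists were chosen with earlier results of these data known. All 8 genes are named, pathway genes where they had a gene-end peak, except some items not reported here, and other genes where a description turns on them, chosen after their values were seen. No set test and no p-value between conditions is given. The alternatives were other windows, thresholds, list lengths, overlap rules, gene-end distances and backgrounds. The input libraries were not analysed here.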

Additional observations from a re-analysis of the deposited data

How the results depend on the processing

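Of 46 recalculated values, 36 kept close to the reported one, within 1.5 times for counts and within the median counting interval for the 2 median folds, and 10 did not. With the Naive list shortened to its 3494 peaks of lowest deposited p-value, 6 Naive peaks remained near the 8 genes, at Spry2 and Etv5. In that setting 2 genes had a Naive peak, 0 had a Naive gene-end peak and 0 peaks were shared. All 6 EpiLC peaks then counted as EpiLC-only and 6 Naive peaks as Naive-only. In the full Naive list the other settings gave the following. Genes with a Naive peak numbered 5 within 10 kb, and also 5 when a peak counted only for its nearest protein-coding gene. Within 100 kb, 5 peaks were shared. With each pileup set over the lowest background of its list, the EpiLC median was 5.57 and the Naive median 5.20, against deposited medians of 3.99 in EpiLC and 4.55 in Naive, so the order of the 2 medians depends on the background used. On that background the EpiLC to Naive ratio was 1.75 at Spry4, 0.954 at Spred2 and 1.32 at Dusp6, where it passed to the other side of equality. Of the 29 single folds, 7 left their counting interval on the same background. These were the nearest Naive peak of Spry2, the Naive peak of Etv4, and every EpiLC peak except the Spry4 peak away from the gene end. A −log10 q of at least 5 left all 6 EpiLC peaks and 19 of the 23 Naive peaks.

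No paired analysis was possible because each condition had 1 library. The cause of these shifts was not tested beyond what each setting leaves out. The lowest pileup was 39 at an EpiLC peak and 16 at a Naive peak, and sequencing depth was not varied.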

Other observations

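Between 50 and 100 kb from the gene bodies, 2 EpiLC and 10 Naive peaks were called. Both EpiLC peaks were at Egr1, at 67.5 and 89.5 kb, with folds of 2.38 and 3.81, and each overlapped a Naive peak, of 5.24 and 11.4. Egr1 also had 4 Naive-only peaks in this range, with folds of 3.68 at 66.6 kb, 7.81 at 82.4 kb, 6.39 at 83.4 kb and 4.20 at 90.1 kb, so that it held 6 of the 10 Naive peaks. Spred1 had Naive-only peaks at 67.4 kb (3.70) and 67.6 kb (4.996), Spred2 at 88.8 kb (3.30) and Dusp6 at 86.3 kb (3.996). Spry2, Spry4, Etv4 and Etv5 had none in this range.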
